A study of Mus musculus with 8 samples.

Results

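The genes of fatty acid breakdown in mitochondria and peroxisomes were followed in the embryonic mouse kidney. Of 42 genes chosen by name from the known steps of the pathway, 41 were read, which was every gene named alone by at least 1 probe set, and they made up 41 of 18194 named genes. Acsl1 was not analysed here. The 41 genes were 22 of mitochondrial steps, 16 of peroxisomal steps and 3 long-chain acyl-CoA synthetases (Acsl3, Acsl4 and Acsl5) that serve both, and 74 of 45101 probe sets named them. Where a gene had several probe sets, the brightest, with the highest mean signal over the 8 arrays, stood for it.

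In mitochondria, a fatty acid coupled to coenzyme A crosses the inner membrane on the carnitine shuttle, and acyl-CoA dehydrogenases, a hydratase, a hydroxyacyl dehydrogenase and a thiolase then shorten it in repeated rounds, with electron transfer flavoprotein carrying electrons to the respiratory chain. Peroxisomes run a related cycle that starts with oxidases, and they handle very long, branched and hydroxylated chains, which they shorten and pass on. The mature proximal tubule is known for its heavy use of fatty acids as fuel and for its many mitochondria and peroxisomes, and many genes of both routes are known targets of the nuclear receptor PPAR alpha.

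Whole kidneys came from embryos of 2 ages, the embryonic days E14.5, when few nephrons have formed, and E18.5, close to birth. Controls were Lim1flox/+; Rarb2-Cretg/+ and mutants Lim1flox/lacZ; Rarb2-Cretg/+, on a mixed background of 129/SvEv, C57BL/6J and SJL/J and of mixed gender, so that every group carried the Cre transgene and a floxed allele of Lim1 (Lhx1), a transcription factor needed for nephron formation. The Cre acts in the metanephric mesenchyme, the source of the nephron epithelium, and not in the ureteric bud, the source of the collecting ducts, so that bud cells of mutants kept the floxed allele beside the lacZ null allele. Kidneys of 23 control and 17 mutant embryos were pooled at E14.5 and of 14 control and 9 mutant embryos at E18.5, which made 1 pool of RNA per condition, and each pool was put on 2 Affymetrix mouse genome arrays. The 2 arrays of a pool were separate target preparations of the same RNA. They measure technical spread only, and with 1 biological replicate per condition the comparisons carry no p-value.

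Values are signals in linear array units. A ratio is that of the mean signals of 2 pools, followed in parentheses by the lowest and highest of the 4 ratios of single arrays, and where all 4 lie on the same side of 1 the arrays of the pools do not overlap. A gene met the size criteria when its ratio was at least 2 and larger than the fold by which duplicates of either pool differed, when its mean signal times the ratio was over 100, and when both arrays of the higher pool reached the 40th percentile of their own array, which lay between 177 and 193. Signals of different probe sets cannot be ranked against each other, so levels are compared only between pools. Of the 41 genes, 40 reached the minimum signal in at least 1 pool, and Acsm3 did not. Acsm1, Hao2, Ehhadh and Acaa1b reached it in E18.5 control alone, and Phyh on 1 of 2 arrays in each E14.5 pool. Where both arrays of the lower pool were under the minimum, the fold is given as a bound, the mean of the higher pool over the mean 40th percentile of the lower one, and where both pools were under it no fold is given. The size criteria and the counts use the signals as read.

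Duplicate arrays correlated over all probe sets at 0.980 to 0.990 (Pearson, log2 signal), and the E18.5 mutant pool was the least even, with a median fold between duplicates of 1.16 over all probe sets and 1.17 over the 41 genes. Hao2 in the E14.5 mutant pool, at 3.13-fold, was the only value of these genes that differed by 1.5-fold or more between duplicates. Lhx1 itself gave no check of the labels. Its brighter probe set read 449 and 517 in E14.5 control, 563 and 554 in E14.5 mutant, 370 and 352 in E18.5 control, and 296 and 333 in E18.5 mutant, so that control over mutant was 0.865 for E14.5 and 1.15 for E18.5, and where its probes lie relative to the deleted part is not known here. The tissue label held against markers: the nephron progenitor gene Six2 read 1716 and 1704 in E14.5 control, and the proximal tubule phosphate carrier gene Slc34a1 read 5061 and 5027 in E18.5 control and 85.2 and 73.8 in E18.5 mutant.

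Fatty acid breakdown genes stood higher in E18.5 control than in E18.5 mutant kidneys in both compartments. Of the 22 mitochondrial genes, 19 were higher in control on all 4 pairings, 15 by at least 1.5-fold, and 3 met the size criteria. Of the 16 peroxisomal genes, 13 were higher on all pairings, 7 by at least 1.5-fold, and 4 met the criteria, among them Hao2, which was at least 12.8-fold higher. In all, 7 of 41 genes met the criteria higher in control (Acaa1b, Acadl, Acadm, Acsm1, Ehhadh, Hao2 and Phyh) and 0 lower, against 1.75% of all named genes higher and 0.0989% lower. Of the 7, Acsm1, Hao2, Acaa1b and Ehhadh were under the minimum in mutant, and the bound reached 2 for all but Ehhadh, at 1.26. At a looser limit, 23 of 41 were at least 1.5-fold higher, against 4.4% of all genes, and 35 of 41 were higher on all pairings, against 21.1%. In whole kidneys, fewer cells of a type and less RNA per cell cannot be told apart.

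The median log2 ratio of the mitochondrial genes was 0.72 (0.57 to 0.86 over the pairings), with quartiles of 0.36 and 0.87 over the genes. For the peroxisomal genes it was 0.48 (0.39 to 0.79), with quartiles of 0.25 and 0.98. The pairing ranges of the 2 medians overlapped. Both medians come from the same pairings, so this overlap does not measure the spread of their difference, which was not tested. The median of all 18194 genes was -0.03. With dim genes at their bounds and Acsm3 left out, the medians were 0.73 and 0.45. The 3 long-chain synthetases had a median of 0.54 (0.52 to 0.56).

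**Figure D1:**
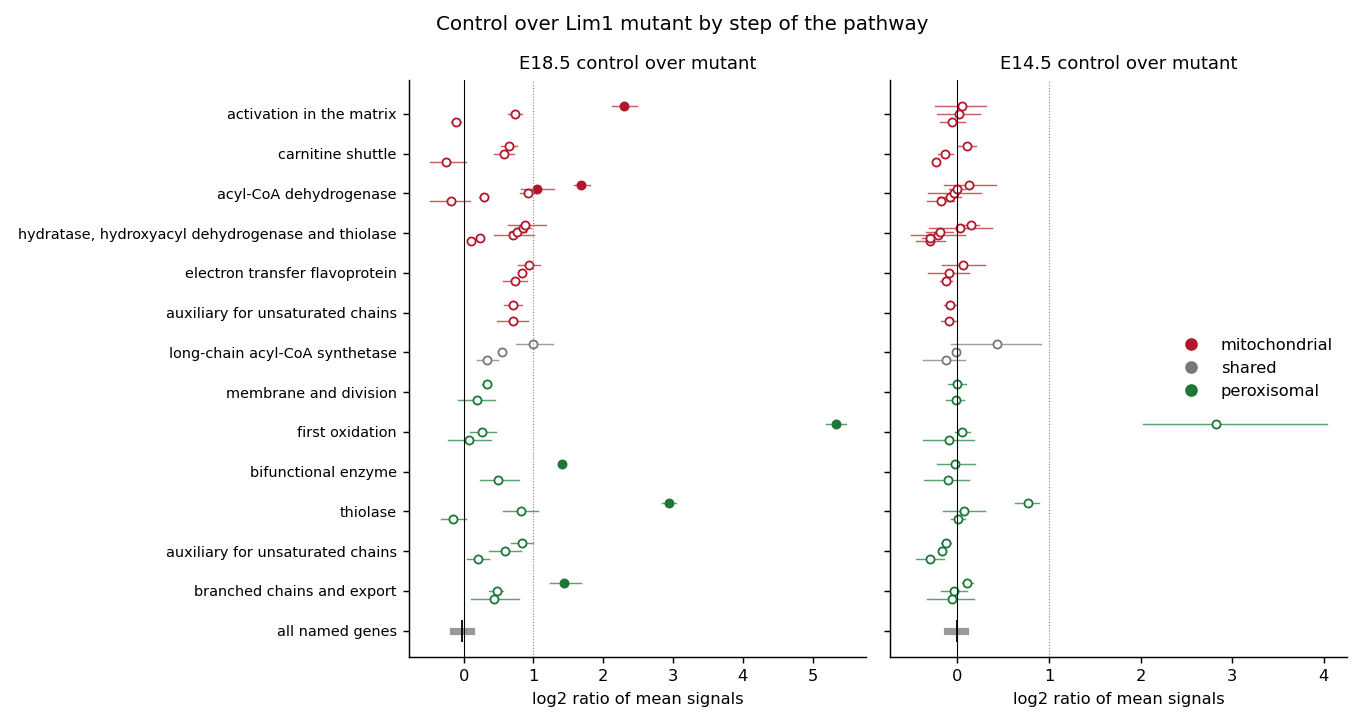
Log2 ratio of control over Lim1 mutant mean signal at E18.5 (left) and E14.5 (right), 1 point per gene grouped by pathway step, with lines over the 4 pairings of single arrays and filled points for genes that met the size criteria. At E18.5 the mitochondrial genes gather between 0.6 and 1.0 while Hao2 and Acaa1b stand far out among the peroxisomal ones, and at E14.5 only Hao2 lies beyond 1, below the minimum signal. Ratios are drawn as read, also for Acsm1, Hao2, Acaa1b and Ehhadh, which were under the minimum in mutant. Hao2, which acts on hydroxy fatty acids, is drawn in the row of first oxidation with the acyl-CoA oxidase genes Acox2 and Acox3. The grey bar is the middle 50% of all named genes.

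Several kidney cell lists moved with this comparison. Of 13 proximal tubule markers, 9 met the criteria higher in control, and their summed signal was 21635 to 21936 in E18.5 control and 3621 to 4264 in E18.5 mutant. Thick ascending limb and distal tubule markers met them in 5 of 8, podocyte markers in 2 of 5 and collecting duct markers in 2 of 6, while all 6 nephron progenitor markers were lower in control on all pairings, with a summed signal of 2815 to 2942 against 4615 to 5277. Their part in the result was not tested.

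Markers of other tissues were read as well. None of 8 muscle and none of 7 adrenal cortex markers met the criteria. Among 8 fat cell markers 1 did, Lpl, the lipoprotein lipase gene, at 2.50 (2.23 to 2.84), and their summed signal was 5998 to 6120 in E18.5 control and 4126 to 4190 in mutant, while Ucp1 read 216 and 196 in control and 239 and 184 in mutant and Adipoq 80.0 and 60.5 and 69.0 and 52.1. Among 7 liver cell markers Ttr, at 7.10 (6.46 to 7.87), and Afp, at 4.88 (4.32 to 5.54), were higher in control and Alb, at 0.492 (0.428 to 0.571), was lower. The summed liver signal was 4414 to 4650 in control and 1890 to 2085 in mutant, and the part of the fat and liver markers in the result was not tested. No list had a defining marker at 0.

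The first mitochondrial step couples medium-chain acids to coenzyme A in the matrix. Acsm1, a medium-chain acyl-CoA synthetase gene, read 151 and 123 in E14.5 control, 128 and 143 in E14.5 mutant, 586 and 629 in E18.5 control and 135 and 113 in E18.5 mutant. The E18.5 control arrays stood above all others, which overlapped among themselves, and at E18.5 the gene was at least 3.28-fold higher in control than in mutant. Its relative Acsm3 read 108 and 109 against 123 and 112, below the minimum signal in every pool.

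The carnitine shuttle genes stood under the 2-fold limit. Cpt1a, the outer membrane acyltransferase that sets the rate of entry, read 361 and 385 in E14.5 control, 361 and 335 in E14.5 mutant, 753 and 827 in E18.5 control and 504 and 558 in E18.5 mutant. By this probe set both E18.5 pools lay above both E14.5 pools, and the E18.5 ratio of control over mutant was 1.49 (1.35 to 1.64). By the 2 dimmer ones the mutant pools of the 2 stages overlapped, the second giving 1.05 (0.881 to 1.24) for E18.5 over E14.5 mutant and 2.00 (1.74 to 2.33) for the genotypes at E18.5. Cpt2, which hands the chain back to coenzyme A inside, had a ratio of 1.57 (1.46 to 1.69). Crat, which moves acetyl groups, had 0.843 (0.718 to 1.02) with overlapping arrays by its brightest probe set. By its second Crat was higher in control on all pairings, at 1.31 (1.26 to 1.35), and its dimmest was under the minimum in both E18.5 pools.

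Acyl-CoA dehydrogenases take the first electrons from the chain, each for its own range of lengths. Acadm, the medium-chain enzyme, read 574 and 659.6 in E14.5 control, 715 and 554 in E14.5 mutant, 2571 and 2577 in E18.5 control and 736 and 864 in E18.5 mutant. The E18.5 control arrays stood far above the other 6, and the ratio of control over mutant was 3.22 (2.98 to 3.50). For Acadl, the long-chain enzyme, the signals were 547 and 625, 635 and 606, 1337 and 1442 and 589 and 753 in the same order of pools, with a ratio of 2.07 (1.78 to 2.45).

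Acadvl, the very long-chain enzyme of the inner membrane, read 473 and 525 in E14.5 control, 503 and 494 in E14.5 mutant, 1090.2 and 1166 in E18.5 control and 567 and 625 in E18.5 mutant. Its E18.5 ratio of control over mutant, 1.89 (1.74 to 2.06), fell just short of 2. The short-chain enzyme gene Acads had 1.22 (1.16 to 1.28). Acadsb, which works on branched short chains from isoleucine, read 1517 and 2110.0 in E18.5 control and 1990.2 and 2118 in mutant and overlapped. The ratios of the dehydrogenases thus ran from 0.883 to 3.22, with the medium-chain gene highest.

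Of the 6 hydratase, hydroxyacyl dehydrogenase and thiolase genes, all were higher in E18.5 control on all pairings and 0 met the criteria, and Acaa2 alone of the 6 changed sides under another scaling, to a log2 ratio of -0.035 with quantile normalization. Hadhb and Hadha encode the beta and alpha subunits of the trifunctional protein, which carries out the later steps for long chains, and had ratios of 1.84 (1.55 to 2.27) and 1.17 (1.13 to 1.21). Echs1, the short-chain hydratase, read 525 and 532 in E14.5 control, 685 and 616 in E14.5 mutant, 1127 and 1264 in E18.5 control and 628 and 831 in E18.5 mutant, a ratio of control over mutant at E18.5 of 1.64 (1.36 to 2.01). The 2 lowest arrays of the gene were those of E14.5 control.

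Acat1, the acetoacetyl-CoA thiolase that also serves ketone bodies, read 762 and 929.9 in E14.5 control, 1082 and 877 in E14.5 mutant, 1904 and 1885 in E18.5 control and 1029 and 1199 in E18.5 mutant, with a ratio of 1.70 (1.57 to 1.85). Acaa2, the general mitochondrial thiolase, read 971 and 852, 1078 and 1002, 1391 and 1305 and 1265 and 1251, with a ratio of only 1.07 (1.03 to 1.11). The 2 thiolases of the same compartment therefore stood at different ratios, and their pairing ranges did not overlap.

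Hadh, the hydroxyacyl dehydrogenase of shorter chains, was chosen after its values were seen because it differed from the others in which pool stood out. It read 2978 and 3316 in E14.5 control, 2865 and 2818 in E14.5 mutant, 3025 and 2950.3 in E18.5 control and 1557 and 1769 in E18.5 mutant. The E18.5 mutant arrays were the low ones, while the E18.5 control arrays lay within or near the range of E14.5 control. The E18.5 ratio of control over mutant was 1.80 (1.67 to 1.94). The second probe set gave the same order of pools, but by the dimmest E18.5 control stood above E14.5 control, at 1.32 (1.21 to 1.45), and the mutant pools overlapped, at 0.895 (0.761 to 1.05), so which pool stood out depended on the probe set.

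The electron transfer flavoprotein genes behaved much alike. Etfa and Etfb encode its subunits and Etfdh the oxidoreductase that passes the electrons on to ubiquinone, and their E18.5 ratios of control over mutant were 1.90 (1.72 to 2.13), 1.66 (1.47 to 1.88) and 1.79 (1.75 to 1.84). Of the auxiliary enzymes for unsaturated chains, the isomerase gene Eci1 had 1.63 (1.5 to 1.78) and the dienoyl-CoA reductase gene Decr1 1.63 (1.40 to 1.90). These 5 genes lay within a narrow band, and none of them met the size criteria.

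**Figure D2:**
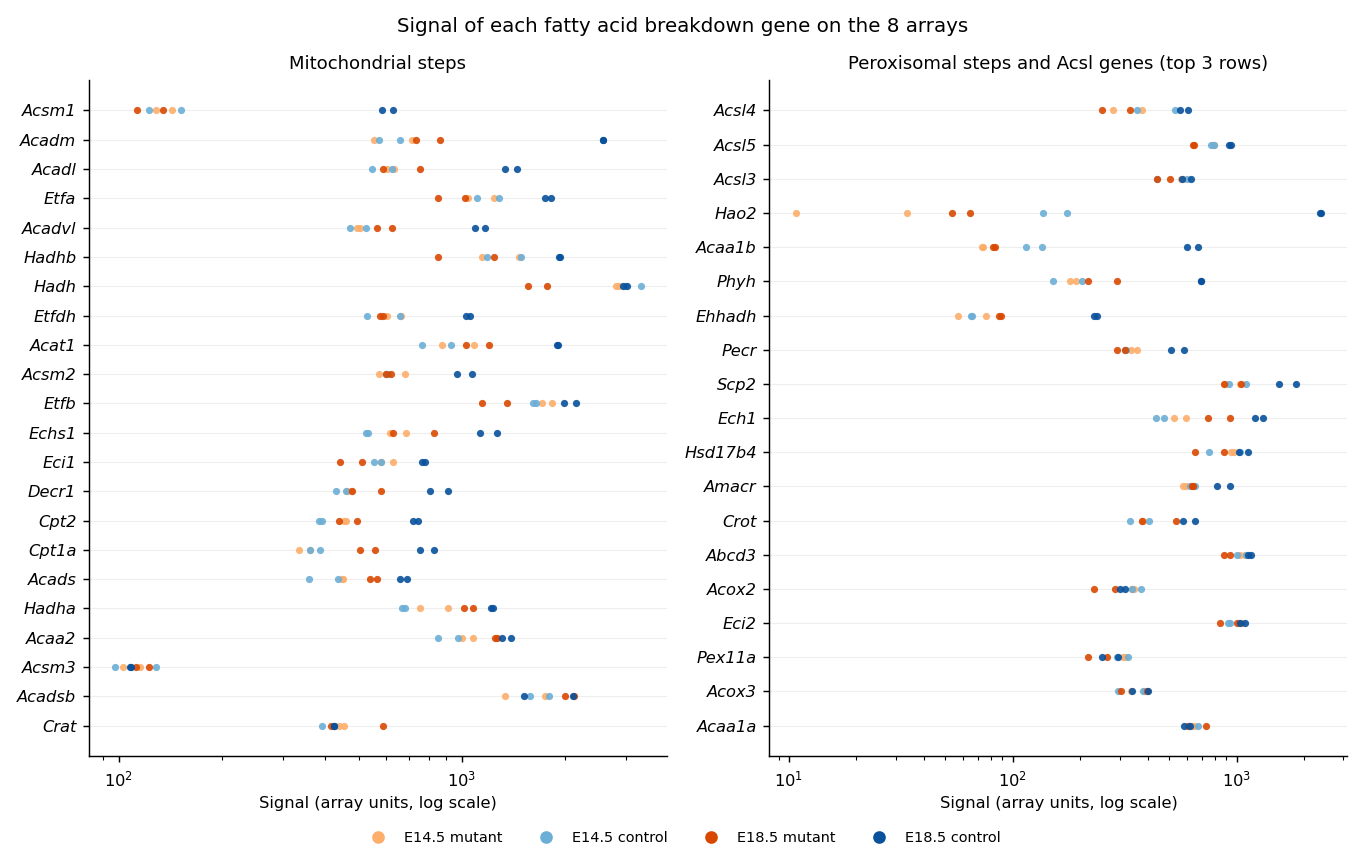
Signal of the 41 genes on the 8 arrays (log axis, 1 row per gene, 1 point per array, colours for the 4 pools). Mitochondrial genes are on the left, and peroxisomal genes are on the right below the 3 Acsl genes. Each of these sets is ordered by the E18.5 ratio of control over mutant. In most upper rows of the mitochondrial and peroxisomal sets the E18.5 control arrays stand to the right of the other 6. For Hadh the E18.5 mutant arrays stand to the left.

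Among the peroxisomal genes, Hao2 had the widest range. It encodes a hydroxyacid oxidase that acts on 2-hydroxy fatty acids, and it read 137 and 175 in E14.5 control, 10.7 and 33.6 in E14.5 mutant, 2387 and 2361 in E18.5 control and 53.7 and 64.3 in E18.5 mutant. The E18.5 control arrays were the only 2 of the 8 at or above the minimum signal, and control was at least 12.8-fold higher than mutant. The log2 ratio of the signals as read, 5.33, was 4.47 with 50 units added to every signal. The acyl-CoA oxidase genes Acox2 and Acox3, which serve branched chains, had 1.20 (1.06 to 1.37) and 1.06 (0.857 to 1.32).

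The 2 peroxisomal 3-ketoacyl-CoA thiolases, Acaa1a and Acaa1b, are close paralogues that carry out the same step, and they had opposite places in the list. Acaa1b read 114 and 135 in E14.5 control, 72.9 and 73.7 in E14.5 mutant, 600.1 and 673 in E18.5 control and 83.7 and 81.3 in E18.5 mutant, at least 3.44-fold higher in E18.5 control than in mutant. Acaa1a read 672 and 615, 646 and 634, 583 and 621 and 731 and 607 in the same order, a ratio of 0.899 (0.797 to 1.02) with overlapping arrays. Probes of paralogues this close may share transcripts, so the division between the 2 genes is uncertain. Scp2, a thiolase of branched chains that also gives rise to a sterol carrier protein, had 1.76 (1.48 to 2.09).

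Ehhadh, the bifunctional hydratase and dehydrogenase of straight chains, read 65.6 and 65.3 in E14.5 control, 76.1 and 57.2 in E14.5 mutant, 237 and 231 in E18.5 control and 88.6 and 87.1 in E18.5 mutant. Its signal passed the minimum in E18.5 control only, by little, and control was at least 1.26-fold higher than mutant. Hsd17b4, the other bifunctional enzyme, which serves branched chains and bile acid precursors, had a ratio of 1.41 (1.17 to 1.73).

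Phyh, the hydroxylase that opens alpha oxidation of phytanic acid, read 152 and 204 in E14.5 control, 191 and 180.3 in E14.5 mutant, 691 and 694 in E18.5 control and 217 and 293 in E18.5 mutant, with a ratio of 2.71 (2.35 to 3.19). Amacr, the racemase that readies branched chains for the cycle, had 1.39 (1.29 to 1.48), and Crot, which exports shortened chains as carnitine esters, had 1.35 (1.08 to 1.74). All 3 genes were higher in control on all pairings, but only Phyh by more than 2-fold.

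Ech1, the dienoyl-CoA isomerase, read 475 and 435 in E14.5 control, 597 and 526 in E14.5 mutant, 1206 and 1315 in E18.5 control and 744 and 934 in E18.5 mutant, and its ratio at E18.5 was 1.5 (1.29 to 1.77). Pecr, the enoyl-CoA reductase gene, had 1.78 (1.60 to 1.99) and the isomerase gene Eci2 had 1.15 (1.04 to 1.29). The membrane and division genes were lower in the order: Abcd3, a carrier of acyl chains into the peroxisome, had 1.26 (1.20 to 1.32), and Pex11a, which promotes division of the organelle, 1.14 (0.949 to 1.36), with overlapping arrays.

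Of the long-chain synthetases that feed both routes, Acsl4 had 2.00 (1.67 to 2.43), Acsl5 1.46 (1.44 to 1.48) and Acsl3 1.26 (1.14 to 1.41). Acsl4 lay just under 2 before rounding and so did not meet the criteria.

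Promoter sequence is shown for Hao2 and for Acsm2, a further medium-chain synthetase. These alone of the genes with a window held a match to the HNF1 palindrome. Hao2 stood at least 12.8-fold higher in E18.5 control than in mutant. The value of Acsm2 depended on the probe set, at 1.66 (1.56 to 1.78) by the brightest and 0.890 (0.763 to 1.04) by the third. By its second and its dimmest Acsm2 was at least 10.3-fold and 3.38-fold higher. HNF1 factors are regulators of tubule genes. Windows of 250 bases before to 50 after the start were taken from RefSeq (GRCm38.p6) for 36 of the 42 genes. The motif, GTTAAT and ATTAAC with any 1 base between, was searched on both strands with up to 2 mismatches, and since it is a palindrome a match reads as 1 site on both. Each sequence is the gene's strand, with the match in capitals and 25 bases on either side.
Hao2, 42 to 30 bases before the start (chr3:98893235-98893297, minus strand): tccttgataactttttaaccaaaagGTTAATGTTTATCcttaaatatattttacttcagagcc
Hao2, 224 to 212 bases before the start (chr3:98893417-98893479, minus strand): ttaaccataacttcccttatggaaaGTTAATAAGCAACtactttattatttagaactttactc
Acsm2, 57 to 45 bases before the start (chr7:119561626-119561688, plus strand): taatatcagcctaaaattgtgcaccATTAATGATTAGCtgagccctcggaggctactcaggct
The 2 genes were 5.56% of the 36, and 1.58% of all 27025 genes with a window held a match. Each of the 3 matches had 2 mismatches. A direct repeat of AGGTCA with any 1 base between, which HNF4A and PPAR with RXR are known to bind, was matched on either strand, with up to 2 mismatches, in 3 of the 36 genes (Acox2, Echs1 and Etfa, or 8.33%) and in 4.4% of all genes, and in none of the 36 did it share a window with the palindrome. Counts this small are a description of letters in a window.

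In the control kidneys, 12 of 41 genes met the size criteria higher at E18.5 than at E14.5 and 0 lower, against 3.57% of all named genes higher and 1.21% lower. These were 7 mitochondrial genes (Acsm1, Cpt1a, Acadm, Acadl, Acadvl, Echs1 and Acat1) and 5 peroxisomal genes (Hao2, Ehhadh, Acaa1b, Ech1 and Phyh). The median log2 ratio was 0.79 (0.77 to 0.85) for the mitochondrial and 0.60 (0.47 to 0.73) for the peroxisomal genes, while that of all genes was -0.01. With dim genes at their bounds and Acsm3 left out, the medians were 0.81 and 0.39. At least 1.5-fold higher were 21 of 41, against 9.11% of all genes, and 31 were higher and 1 lower on all pairings, against 31.9% and 30.4%. This comparison shares its E18.5 control pool with the comparison of genotypes, so the 2 are not independent.

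In E14.5 control Hao2, Acaa1b, Acsm1 and Ehhadh were under the minimum signal, and the genes were at least 12.6-fold, 3.37-fold, 3.21-fold and 1.24-fold higher at E18.5, the last short of 2. Acadm had a stage ratio of 4.17 (3.90 to 4.49). Phyh had 3.89 (3.38 to 4.58), with 1 of its 2 E14.5 control arrays under the minimum, and Ech1 had 2.77 (2.54 to 3.02). The remaining genes that met the criteria lay between 2.12 (Cpt1a) and 2.37 (Acadl).

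Not every gene of the pathway stood higher at the later stage. By the brightest probe sets, Acox2 was lower at E18.5 on all pairings, at 0.866 (0.808 to 0.929), the only such gene. Hadh, at 0.950 (0.890 to 1.02), Crat, at 1.04 (0.997 to 1.08), and Acaa1a, at 0.935 (0.868 to 1.01), were near level with overlapping arrays. By their dimmest, Hadh, at 1.32 (1.21 to 1.45), and Acaa1a, at 1.26 (1.17 to 1.36), were higher on all pairings. Crat was higher by its second, at 1.10 (1.06 to 1.15), and lower by its dimmest. Nephron markers moved with the stage as well: 9 of 13 proximal tubule markers met the criteria, with a summed signal of 4210 to 4459 in E14.5 control and 21635 to 21936 in E18.5 control. Their part in the result was not tested.

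In the mutant kidneys, 0 of 41 genes met the criteria in either direction between the stages, against 0.896% of all genes higher and 0.742% lower at E18.5. The median log2 ratio was 0.14 (0.02 to 0.21) for the mitochondrial genes and 0.03 (-0.01 to 0.04) for the peroxisomal genes. Without array 2 of the E18.5 mutant pool the mitochondrial median was 0.014, and without array 1 of the E14.5 mutant pool the peroxisomal median was 0.095. On all pairings 14 genes were higher at E18.5 and 13 were lower, against 27.8% and 24.1% of all genes, and 2 were at least 1.5-fold higher and 1 lower, against 3.59% and 4.36%. Without the 5 genes under the minimum in both mutant pools (Acsm1, Acsm3, Hao2, Ehhadh and Acaa1b), the medians were 0.17 and -0.039.

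Genes of several steps stood on either side. Those higher in E18.5 mutant included Ech1, at 1.49 (1.25 to 1.78), and, by its brightest probe set only, Cpt1a, at 1.53 (1.40 to 1.67). Lower ones included Hadh, at 0.585 (0.544 to 0.628) by its brightest probe set, and all 3 electron transfer flavoprotein genes, Etfb at 0.705 (0.627 to 0.788), Etfa at 0.822 (0.690 to 0.979) and Etfdh at 0.919 (0.868 to 0.975). Proximal tubule markers summed to 3829 to 4399 in E14.5 mutant and 3621 to 4264 in E18.5 mutant.

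The log2 stage ratio in control minus that in mutant, taken gene by gene, used all 4 pools. It equals the log2 ratio of control over mutant at E18.5 minus that at E14.5. It was above 0 for 37 of 41 genes, against 8712 of all 18194, and had a median of 0.74, against -0.01 over all genes. The median was 0.82 for mitochondrial and 0.53 for peroxisomal genes. Among the 35 genes at or above the minimum in all 4 pools it was above 0 for 32, with Acadm highest at 1.73, followed by Acadl at 1.13 and Echs1 at 1.01, and with Acadsb lowest at -0.31.

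**Figure D3:**
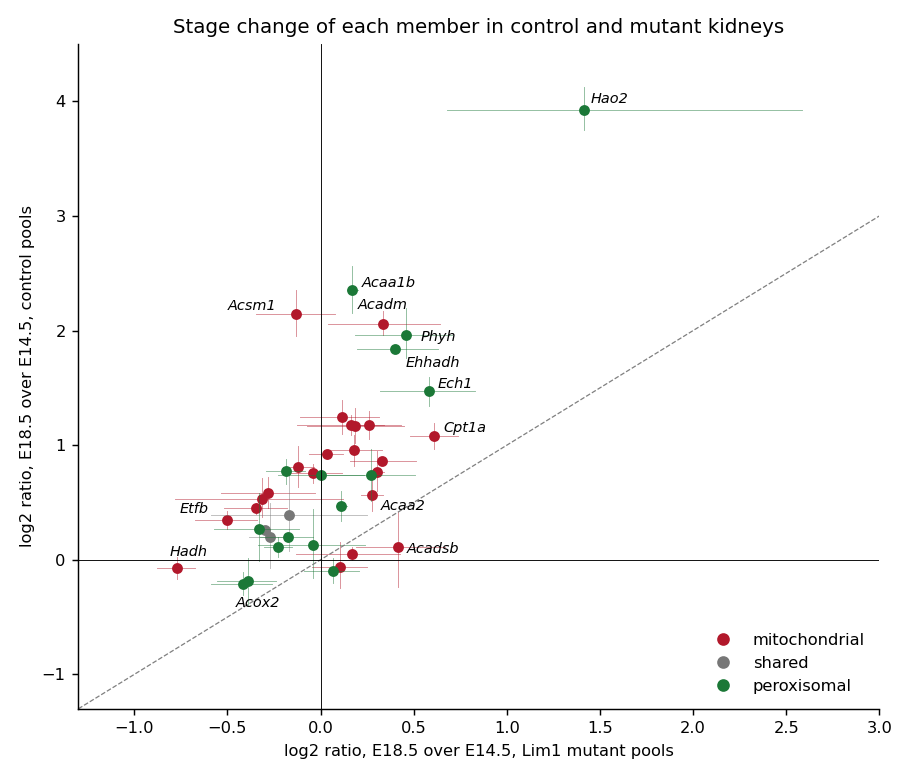
Stage change, as log2 of E18.5 signal over E14.5 signal, in the mutant pools (x axis) and in the control pools (y axis) for the 41 genes, coloured by compartment, with lines over the 4 pairings of single arrays and a dashed line of equal values. Of the 41 points, 37 lie above the dashed line, against 8712 of all 18194 named genes, which are not drawn. Hao2, Acaa1b and Acsm1, drawn as read although under the minimum signal in the other 3 pools, stand high in control, and Hadh stands at the left with a value near 0 in control.

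At E14.5, before most tubule segments form, 0 of 41 genes met the criteria in either direction between control and mutant, against 0.0715% of all genes higher in control and 0% lower. The median log2 ratio was -0.08 (-0.13 to -0.04) for mitochondrial and -0.02 (-0.11 to 0.09) for peroxisomal genes. On all pairings 5 genes were higher in control (Cpt1a, Hadh, Hao2, Acaa1b and Amacr) and 11 lower, against 15.8% and 21.8% of all genes.

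As read, 2 of the genes were 1.5-fold or more higher in E14.5 control, against 0.522% of all genes, and both were peroxisomal. These were Hao2 and Acaa1b, whose E14.5 arrays were all under the minimum signal, with the 2 mutant arrays of Hao2 3.13-fold apart, so no fold is given. The study's own E14.5 list used present calls in place of this minimum. It holds Hao3 at 7.05-fold and MGC37245 at 2.29-fold higher in control. These values equal the ratios as read of Hao2 and of the second Acsm2 probe set, which was also under the minimum in both E14.5 pools. Acadm, which stood high at E18.5, had 0.972 (0.803 to 1.19) at this stage. Of the 13 proximal tubule markers, 1 met the criteria higher in E14.5 control, against 0.0715% of all genes. At least 1.5-fold higher were 4 of them, against 0.522%. On all pairings 6 markers were higher and 1 lower in E14.5 control. Their summed signal was 4210 to 4459 in control and 3829 to 4399 in mutant, which overlapped. Their part in the 2 peroxisomal values was not tested.

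Among the genes somewhat lower in E14.5 control, Ech1 had 0.810 (0.729 to 0.903), Echs1 0.812 (0.767 to 0.862) and Hadha 0.812 (0.733 to 0.907). The largest of these differences was under 1.3-fold in the means. All 3 genes were on the opposite side at E18.5.

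The probe sets of a gene often differed. Of the 21 genes with several, 12 had E18.5 ratios of control over mutant that spanned less than 1.5-fold, and 7 had probe sets on both sides of 1 (Acsm2, Crat, Acaa2, Etfdh, Acox3, Acaa1a and Crot). The dimmest probe sets of Acadl, Acsl4 and Etfdh were under the minimum signal in both E18.5 pools, with overlapping arrays. Acsm2 had the widest span of log2 ratios as read, 5.34. Its brightest probe set read 968 and 1069 in E18.5 control and 622 and 602 in E18.5 mutant, a ratio of 1.66 (1.56 to 1.78). The second read 96.5 and 116 in E14.5 control, 40.5 and 52.5 in E14.5 mutant, 1857 and 1955 in E18.5 control and 63.4 and 42.2 in E18.5 mutant, and was at least 10.3-fold higher in E18.5 control than in mutant. Of the other 2, dimmer still, the brighter had 0.890 (0.763 to 1.04) and the dimmest was at least 3.38-fold higher. Which transcripts each probe set of Acsm2 detects is not known here, so no single ratio stands for the gene.

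If any probe set of a gene was allowed to pass, 10 of 41 genes met the criteria in E18.5 control over mutant, with Acsm2, Acat1 and Scp2 added, and 14 in E18.5 over E14.5 control, with Acsm2 and Acaa2 added. Scp2 entered by its second probe set, at 2.15 (1.89 to 2.44) against 1.76 (1.48 to 2.09) by the brightest, and Acat1 by its second, at 2.01 (1.90 to 2.13). The dimmer probe set of Acaa1a, at 1.42 (1.37 to 1.47), put that gene on the other side of 1 from the brighter one.

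**Figure D4:**
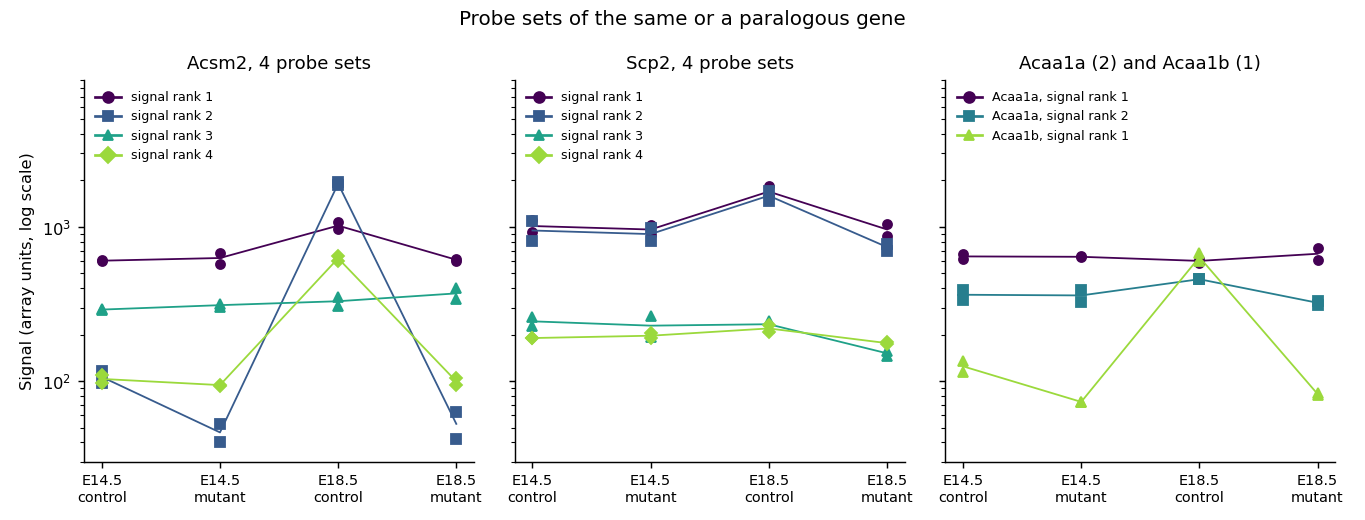
Signal on each of the 8 arrays (log axis, points) and pool means (lines) for the probe sets of Acsm2, Scp2 and the paralogues Acaa1a and Acaa1b, ranked by mean signal. The Acsm2 probe sets of rank 2 and 4 are high in E18.5 control alone, as is that of Acaa1b, while the one of rank 3 stays between 289 and 401.

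Further genes around the pathway were read from lists. Of 31 further fatty acid breakdown genes, 2 met the criteria higher in E18.5 control than in mutant and 0 lower. Their median log2 ratio was 0.27. Slc27a2, which imports and activates very long chains, read 1822 and 1927 in E18.5 control and 179 and 149 in mutant, at least 10.1-fold higher, and Acot13, an acyl-CoA thioesterase of mitochondria, had 3.60 (3.05 to 4.31). Slc25a20, the carnitine carrier of the inner membrane, stood at 1.13 (1.05 to 1.22) and Slc22a5, the carnitine importer of the cell, at 1.15 (1.09 to 1.21).

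The products of the cycle feed further routes. Of 9 ketone body and propionate genes 4 met the criteria, with a median of 0.59: the ketone body dehydrogenase gene Bdh1 at 4.81 (4.57 to 5.08), the propionate route genes Mcee and Pcca at 2.38 (2.30 to 2.46) and 2.29 (1.97 to 2.67), and Oxct1, which activates ketone bodies, at 2.19 (1.85 to 2.63). Oxct1 read 3487 and 3575 in E14.5 control, 3170.2 and 3615 in E14.5 mutant, 4079 and 3809 in E18.5 control and 1549 and 2059 in E18.5 mutant, and the E18.5 mutant arrays were the low ones.

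The other lipid and organelle lists had lower medians. Of 26 genes of peroxisome biogenesis and other peroxisomal enzymes 1 met the criteria, the D-amino acid oxidase gene Dao at 5.20 (4.71 to 5.74), with a median of 0.21. Of 17 genes of fatty acid synthesis none did, with a median of 0.06.

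The regulators and targets of PPAR alpha gave 1 of 18, Vnn1, the pantetheinase gene, at least 1.58-fold higher, with a median of 0.06. Ppara itself was at least 1.07-fold higher and Ppargc1a, a coactivator of mitochondrial genes, had 1.93 (1.90 to 1.97). For 3 genes of this list a dimmer probe set met the criteria where the brightest did not. Fabp3, a fatty acid binding protein gene, had 1.07 (0.994 to 1.15) by its brightest and was at least 9.61-fold higher by its second. Hnf4a, a nuclear receptor of tubule and liver, had 1.22 (0.909 to 1.58) by its brightest, 5.07 (4.73 to 5.46) by its second, 1.13 (1.04 to 1.24) by the next and was at least 5.13-fold higher by its dimmest. Ppargc1a met the criteria by each of its 4 dimmer ones, all under the minimum signal in E18.5 mutant. The highest of their bounds was 2.12-fold. The dimmest, with a mean of 198 in E18.5 control, passed the minimum there by little. All 5 Ppargc1a probe sets were higher in control on all pairings. The probe set chosen thus decided whether these 3 genes met the criteria.

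**Figure D5:**
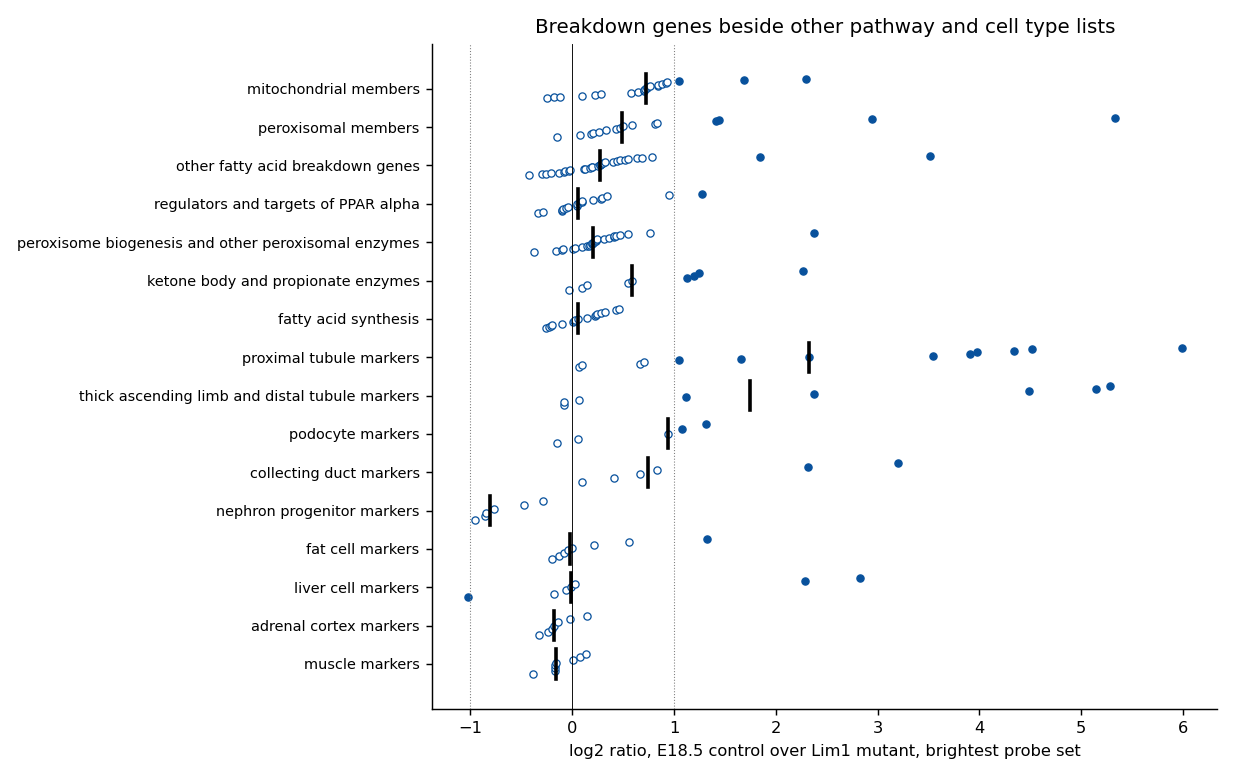
Log2 ratio of E18.5 control over Lim1 mutant by the brightest probe set for the mitochondrial and peroxisomal genes and 14 other lists, 1 point per gene, filled where it met the size criteria, with the median as a bar. The medians of the breakdown genes, 0.72 and 0.48, lie between those of fatty acid synthesis, 0.06, and of the proximal tubule markers, 2.33.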

How the data were processed

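Intensity values are those the authors deposited: probe set signals from Affymetrix Microarray Suite, scaled to a common level, then normalised between arrays in dChip with an invariant set of probes, as the study's methods describe. The array medians in the file, 225 to 243, differ from those the methods state, so the last step applied is not settled. Raw probe values were not used here. Of 45101 probe sets, 34958 had 1 gene in the platform annotation, 932 several and 9211 none listed, and 34754 were matched to current symbols by gene identifier. Groups came from the labels. Ratios of pool means, size criteria, list medians and promoter matches were computed in Python 3.11.15 with pandas 2.3.3 and numpy 2.4.6, with signals under 1 set to 1. Where both arrays of the lower pool were under the 40th percentile, the fold printed is a bound against that percentile, a step chosen after the data were seen. The criteria follow the study's methods, with the 40th percentile in place of the present call. They were tried on simulated signals with changes planted only in probe sets at or above the median signal. That trial does not cover genes under the minimum in the lower pool, such as Hao2, Acsm1, Acaa1b and Ehhadh. All members could be named; signals on all 8 arrays were given for those that met the criteria in a comparison and for a few near a ratio of 1, and from other lists the extreme genes at or above the minimum signal, with Ucp1, Adipoq, Slc25a20, Slc22a5, Oxct1, Ppara, Vnn1, Hnf4a and Fabp3 added after their values were seen. The members and lists were chosen with earlier results of these data known. Alternatives were other minimum signals, scalings and means, 50 units added, any probe set or the mean of probe sets, filters on members, and each array left out.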

Additional observations from a re-analysis of the deposited data

Results flagged for a closer look

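For 10 of 41 genes the difference between genotypes lay on opposite sides of 1 on every pairing of arrays at the 2 stages, higher in control at E18.5 and lower in control at E14.5, as it did in either direction for 8.57% of all named genes. The gap between the log2 ratios was 1.01 for Echs1, 0.959 for Pecr, 0.89 for Ech1, 0.886 for Cpt2, 0.852 for Etfb and 0.778 for Decr1. It was 0.527 for Hadha, 0.463 for Acads, 0.372 for Eci2 and 0.289 for Acaa2, which was -0.035 at E18.5 with quantile normalization. On every pairing the stage changes in control and mutant were opposite, in either direction, for 4.86% of all named genes. For 8 of 41 genes the change from E14.5 to E18.5 was up on every pairing in control and down on every pairing in mutant. That gap was 0.959 for Pecr, 0.929 for Etfdh, 0.864 for Etfa, 0.852 for Etfb and 0.794 for Eci1. It was 0.558 for Acsl5, 0.372 for Eci2 and 0.339 for Abcd3. For any gene the 2 gaps are the same quantity, the log2 stage ratio in control minus that in mutant. The 2 lists are therefore not separate results. With 1 pool per condition these differences were not tested, and the arrays repeat the same RNA.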

How the results depend on the processing

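None of the log2 ratios of genes that met the criteria changed sign. For E18.5 control over mutant, 5 ratios near 1 did: Acaa2, 0.10 on the log2 scale, was -0.035 with quantile normalization, Acaa1a, -0.15, was 0.096 and Crat, -0.25, was 0.010 with the mean over probe sets, and Crat (0.029 without array 1 of the mutant), Acadsb (0.039 without array 1 of the control) and Acox3 (-0.042 without array 1 of the control and -0.10 without array 2 of the mutant) changed side when an array was left out. The number of genes that met the criteria stayed within 6 to 10 for E18.5 control over mutant and 11 to 14 for E18.5 over E14.5 control under all alternatives other than leaving out an array. In E14.5 control over mutant it was 1 with no minimum signal in place of 0. The mitochondrial median for E18.5 over E14.5 control, 0.79, was 0.83 with median scaling, 0.71 with quantile normalization and 0.73 with 50 units added, and that for E14.5 control over mutant, -0.08, was -0.031 with quantile normalization. The peroxisomal median for E18.5 over E14.5 control, 0.60, was 0.48 with the mean over probe sets, 0.47 with brighter members only and 0.74 without genes of both compartments (Crat, Eci2, Ech1 and Amacr). The peroxisomal median for E18.5 over E14.5 mutant, 0.03, was 0.0066 with median scaling, 0.10 with quantile normalization and 0.0021 with brighter members only or without genes of both compartments. The cause was not tested. With each array left out, counts ran from 6 to 10 and from 12 to 13 and were 0 in the other 2 comparisons, mitochondrial medians from 0.61 to 0.85 (E18.5 genotype), 0.78 to 0.81 (control stage), -0.14 to -0.05 (E14.5 genotype, -0.14 without array 2 of the E14.5 mutant) and 0.014 to 0.19 (mutant stage, 0.014 without array 2 of the E18.5 mutant), and peroxisomal medians from 0.40 to 0.72, 0.49 to 0.69, -0.06 to 0.06 (0.057 without array 1 of the E14.5 control and 0.0098 without array 1 of the E14.5 mutant) and 0.030 to 0.095 (0.095 without array 1 of the E14.5 mutant). No paired analysis was possible because the comparisons come from no test and the array numbers mark technical duplicates. Signals under the 40th percentile lie near background, which limits Hao2, Acaa1b, Ehhadh and Acsm1 outside E18.5 control, Phyh at E14.5 and Acsm3 in every pool. Of 53 gene values, 11 moved by more than 1 SD over the pairings with 50 units added, Hao2 the most, by 0.855 on the log2 scale at E18.5.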
